A study of Homo sapiens with 3 samples.

Results

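ABCA4, ABCA5 and ABCG4 are 3 genes of the ATP-binding cassette (ABC) transporter family, and their RNA levels were followed here in a human liver cancer cell line after knockdown of HKDC1 or RBBP5. They were found in the deposited table by symbol, and each was taken as the sum of its RefSeq transcript rows. They are 3 of 12034 gene symbols with a row of their own, and 3 of the 1089 that reached a mean of 1 CPM (counts-per-million, scaled by TMM, a correction for library composition) over the libraries. The cell line is called PLC in the labels, and the study asked whether HKDC1, a hexokinase, and RBBP5, a subunit of the complexes that methylate histone H3 at lysine K4, regulate gene expression. One library was sequenced per group, so there were 3 libraries in all: NTC, the control, shHKDC1, with HKDC1 knocked down, and shRBBP5, with RBBP5 knocked down. All 3 came from the same line in the same culture medium, while hairpin sequences, knockdown time and the use of clones or pools went unstated in the labels. HKDC1 and RBBP5 themselves had 0 rows of their own, and the depth of either knockdown was therefore not analysed here.

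ABC transporters use the energy of ATP to move a substrate across a membrane. Members of the A and G subfamilies mostly carry lipids: sterols, phospholipids and retinoid-lipid adducts. In the liver the family is known for secreting bile acids, phospholipids and sterols into bile, for loading lipid onto lipoproteins and for exporting drugs. ABCA4 clears retinaldehyde adducts from photoreceptor discs, and its loss causes Stargardt macular degeneration. ABCA5 sits in late endosomes and lysosomes and takes part in cholesterol and sphingolipid traffic. ABCG4, best known from brain, exports sterols to lipoproteins and is a close relative of ABCG1.

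Trimethylated H3K4, the mark that RBBP5-containing complexes deposit, is known to gather at promoters rich in CG dinucleotides. The 250 bases before the annotated start are therefore shown for ABCA5 and for the first ABCG4 start, with CG in capitals, from RefSeq on GRCh38.p14. The promoter reference used here held no window for ABCA4, so none is shown. The ABCA5 window is chr17:69327134-69327383 on the minus strand and the ABCG4 window is chr11:119148802-119149051 on the plus strand.
ABCA5: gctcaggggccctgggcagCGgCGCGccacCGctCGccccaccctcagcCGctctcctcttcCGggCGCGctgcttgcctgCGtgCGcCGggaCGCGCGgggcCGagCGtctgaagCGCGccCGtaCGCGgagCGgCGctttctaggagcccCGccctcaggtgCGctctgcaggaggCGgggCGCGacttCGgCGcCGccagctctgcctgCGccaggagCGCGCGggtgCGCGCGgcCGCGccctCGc
ABCG4: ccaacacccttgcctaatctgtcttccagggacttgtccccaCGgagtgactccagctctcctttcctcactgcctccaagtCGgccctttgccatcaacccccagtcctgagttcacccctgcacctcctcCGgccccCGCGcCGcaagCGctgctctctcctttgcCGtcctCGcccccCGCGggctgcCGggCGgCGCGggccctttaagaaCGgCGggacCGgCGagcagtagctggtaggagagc
The ABCA5 window holds 42 CG dinucleotides, more than 98.6% of the 35116 promoter windows of this length, whose median is 11. The ABCG4 window holds 19, more than 65.4% of those windows, and the window before a second annotated ABCG4 start holds 25, more than 78.4%. GC content is 79.2% for ABCA5 and 66.8% and 74.8% for the ABCG4 windows, against a median of 58%. Both strands were searched for the GC box GGGCGG, which overlaps CG and occurs 1 time in each printed window and in 42.6% of all windows. The E-box CACGTG is in neither printed window and in 6.34% of all windows, and TATAAA is in neither and in 10.7%. These counts describe the DNA alone, since no histone mark was measured in these libraries, and the table itself was made on hg19.

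The deposited counts summed to 161750310 units in NTC, 115556160 in the shHKDC1 library and 154533913 in shRBBP5, and 4 units were taken as 1 sequenced fragment. Anonymous assembled loci took 99.4% to 99.6% of the units, so each named gene rests on the small remainder, and whether further reads of ABCA4, ABCA5 or ABCG4 lay in such a locus was not tested. Of 13 hepatocyte markers only FGB, a fibrinogen chain, had a row, and its level was 2.41 CPM in NTC, with 0.600 in shHKDC1 and 2.30 in shRBBP5. FGB was called lower in shHKDC1 over NTC (−1.99 [−2.82 to −1.20]), where 23.4% of the measured genes were called lower. In shRBBP5 over NTC it was not called (−0.07). Markers of other cell types were low but not even. The 2 bile duct markers with rows summed to 0.200, 1.91 and 0.150 CPM, nearly all of it from KRT7. The 5 stromal markers with rows summed to 0.845, 1.61 and 1.95, mostly PDGFRB. PDGFRB, the only stromal marker at a mean of 1 CPM, was called higher in both knockdowns over NTC (1.29 and 1.36). In shHKDC1 over NTC 8.17% of the measured genes were called higher, and in shRBBP5 over NTC 10.7% were called higher or lower. COL3A1 lay on the other side, uncalled, with 42, 6 and 26 units in NTC, shHKDC1 and shRBBP5. In that order DES had 0, 3 and 36 units and ACTA2 had 0, 4 and 0, while COL1A2 had 0 throughout. The sum of the endothelial markers stayed between 0.0581 and 0.144 CPM over the libraries, and that of the leukocyte markers between 0 and 0.0774. Their part in the results below was not tested.

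ABCA4 and ABCA5 were lower in the shHKDC1 library than in NTC, and ABCA4 and ABCG4 were lower there than in the shRBBP5 library. Together the 3 genes reached 8.02 CPM in NTC, were at 3.33 CPM in shHKDC1 and stood at 8.54 in shRBBP5. A gene was called higher or lower when it differed at least 2-fold and the exact 95% interval of the ratio excluded 1. With 1 library per group there is no test between groups and no p-value is given. Bracketed intervals hold the counting error and nothing else. Fewer cells of one kind and less RNA per cell cannot be told apart in such bulk RNA.

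**Figure D1:**
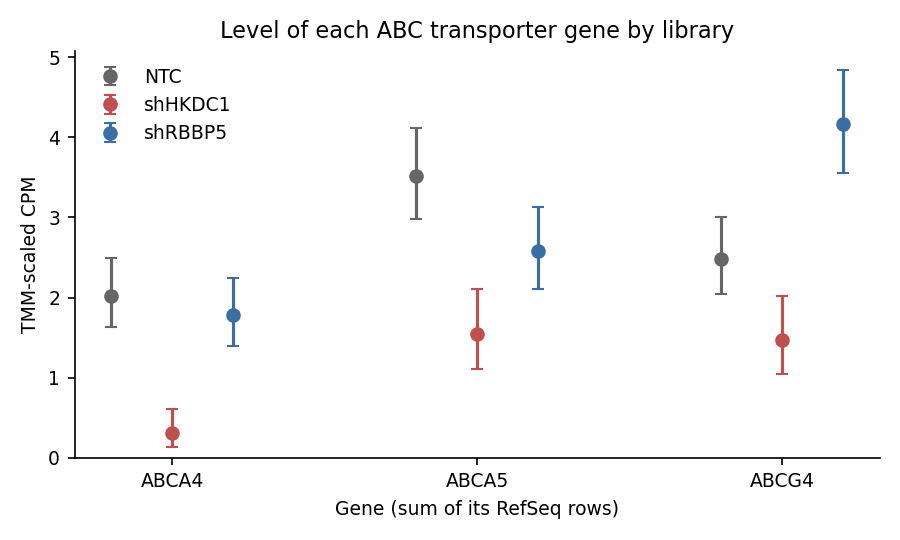
TMM-scaled CPM of ABCA4, ABCA5 and ABCG4 (vertical axis) in the NTC, shHKDC1 and shRBBP5 libraries. Points are single libraries and bars are exact 95% Poisson intervals on fragments. ABCA4 drops to 0.310 CPM in shHKDC1, and ABCG4 is highest in shRBBP5 at 4.17 CPM.

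ABCA4, the retinoid-lipid transporter, stood at 2.03 CPM [1.63 to 2.50] in NTC, 0.310 [0.134 to 0.610] in shHKDC1 and 1.79 [1.39 to 2.25] in shRBBP5. NTC and shRBBP5 lay side by side and shHKDC1 lay apart below both, on 8 fragments against 89 and 71. The log2 ratio of shHKDC1 over NTC was −2.69 [−3.97 to −1.67], a 6.45-fold lower level. That ratio ranked 17 from the lowest among the 1089 measured genes. ABCA4 passed the filter on low values through NTC and shRBBP5, since its level in shHKDC1 was itself below 1 CPM. The ratio of shRBBP5 over NTC was −0.18 [−0.66 to 0.28] and was not called. Directly, shHKDC1 lay below shRBBP5 by the ratio −2.51 [−3.79 to −1.47]. All of the units were on the row NM_000350.3, the only one of 2 RefSeq transcripts of ABCA4 with a row of its own, so reads of the other transcript are outside the value.

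ABCA5, the endosomal and lysosomal member, stood at 3.52 CPM [2.98 to 4.12] in NTC, 1.55 [1.11 to 2.11] in shHKDC1 and 2.58 [2.11 to 3.13] in shRBBP5. The 3 libraries were graded, with NTC highest, shRBBP5 between and shHKDC1 lowest. The ratio of shHKDC1 over NTC was −1.18 [−1.72 to −0.67], a 2.27-fold lower level that ranked 186 from the lowest of 1089. The ratio of shRBBP5 over NTC was −0.45 [−0.82 to −0.08], an interval below 0 whose size missed the 2-fold rule. In the direct comparison shHKDC1 stood at −0.74 [−1.30 to −0.20] against shRBBP5, also short of the rule. The row NM_018672.5 held 98.7% of the ABCA5 units in NTC [95.4% to 99.8%], 100% in shHKDC1 [91.2% to 100%] and 99.3% in shRBBP5 [94.7% to 99.98%], by exact Clopper-Pearson intervals, so nearly all of the difference lay on 1 row.

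ABCG4, the sterol exporter, stood at 2.48 CPM [2.04 to 3.0] in NTC, 1.47 [1.04 to 2.02] in shHKDC1 and 4.17 [3.55 to 4.85] in shRBBP5. The knockdowns lay on opposite sides of NTC. The ratio of shHKDC1 over NTC was −0.75 [−1.33 to −0.21], and that of shRBBP5 over NTC was 0.75 [0.38 to 1.10]. Neither reached 2-fold, although with total counts in place of TMM scaling the first became −1.03 [−1.61 to −0.49] and was called lower. The gap between the knockdowns was wider and was called, with shHKDC1 over shRBBP5 at −1.50 [−2.05 to −0.98], a 2.83-fold lower level. Of its transcript rows taken singly, only NM_022169.5 was called lower, at −2.35 [−3.20 to −1.65]. NM_001348192.2 at −0.43 and NM_001348191.2, on the other side at 1.43 [−0.26 to 3.40], were not called. NM_022169.5 and NM_001348191.2 could not be cleanly separated, as set out below. Added together, a choice made after their values were seen, they were called lower at −1.79 [−2.42 to −1.17]. In shRBBP5 over NTC the ABCG4 ratio ranked 50 from the highest of 1089 genes.

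The 3 genes were picked with earlier results of these data known, so their counts are a description. Set against the background, 2 of the 3 genes were called lower in shHKDC1 than in NTC, where 23.4% of the measured genes and 12.1% of all measured features, anonymous loci included, were called lower. In shRBBP5 against NTC 0 of the 3 were called, where 10.7% of genes and 4.42% of features were called higher or lower. In shHKDC1 against shRBBP5 2 of the 3 were called lower, ABCA4 and ABCG4, where 18.1% of genes and 10.2% of features were. The medians of the 3 ratios were −1.18, −0.18 and −1.50, beside medians of −0.40, −0.20 and −0.15 over the 1089 genes. Total-count scaling moved those medians of all genes to −0.69, −0.27 and −0.37. The first 2 comparisons share the NTC library, and the third shares one library with each.

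**Figure D2:**
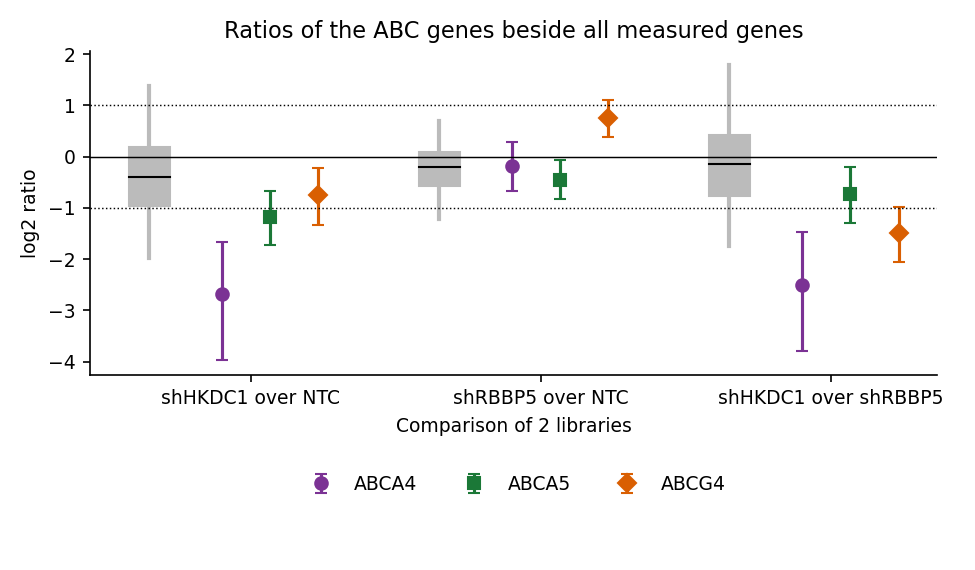
Log2 ratios (vertical axis) of ABCA4, ABCA5 and ABCG4 in the 3 library comparisons, with exact 95% counting intervals as bars. Grey boxes span the middle of the 1089 measured genes from percentile 25 to 75, grey lines from percentile 5 to 95, black ticks are medians, and dotted lines mark the 2-fold rule. ABCA4 lies at −2.69 and −2.51 in the comparisons that hold shHKDC1 and at −0.18 in the other, while ABCG4 changes side between −0.75 and 0.75.

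Under the gene-level values, the ABCG4 transcript rows did not move together. The row NM_022169.5 stood at 0.599 CPM [0.388 to 0.870] in NTC, 0.668 [0.383 to 1.05] in shHKDC1 and 3.43 [2.88 to 4.06] in shRBBP5, and shRBBP5 lay clear of both other libraries. NM_001348191.2 showed the reverse order between NTC and shRBBP5, with 1.04 CPM [0.769 to 1.40] in NTC, 0.358 [0.159 to 0.661] in shHKDC1 and 0.132 [0.0407 to 0.293] in shRBBP5. NM_001348192.2 stood at 0.839, 0.445 and 0.602 CPM in the same order, and NM_001142505.1 had 0 units in every library. NM_022169.5 thus made up 24.2% of the ABCG4 units in NTC [16.2% to 33.0%], 45.4% in shHKDC1 [28.6% to 61.7%] and 82.4% in shRBBP5 [75.9% to 88.0%]. For shRBBP5 over NTC the ratio was 2.51 [1.92 to 3.20] for NM_022169.5, called higher, and −2.95 [−4.76 to −1.74] for NM_001348191.2, called lower on 5 fragments in shRBBP5. For shHKDC1 over NTC, where the gene sum was not called, NM_001348191.2 was called lower at −1.52 [−2.81 to −0.54].

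These rows could not be cleanly separated. NM_022169.5 and NM_001348191.2 have the same counterpart in GENCODE 29, a single transcript of 3852 bases, by earlier versions of their accessions. How the estimated counts were divided between rows that share reads is unstated in the labels, and whether it differed between the libraries was not tested. Added together, a choice made after their values were seen, these rows held 1.64 CPM in NTC, with 1.03 in shHKDC1 and 3.57 in shRBBP5. Their summed ratio was 1.12 [0.70 to 1.54] for shRBBP5 over NTC, which was called higher, −0.67 [−1.35 to 0.00] for shHKDC1 over NTC, which was not, and −1.79 [−2.42 to −1.17] for shHKDC1 over shRBBP5, which was called lower. Such opposite rows were common: of 374 measured genes with 2 or more rows at 3 or more fragments in both libraries, 51, or 13.6%, had 1 row called higher and 1 called lower in shRBBP5 over NTC. The ABCG4 split is 1 of those 51.

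**Figure D3:**
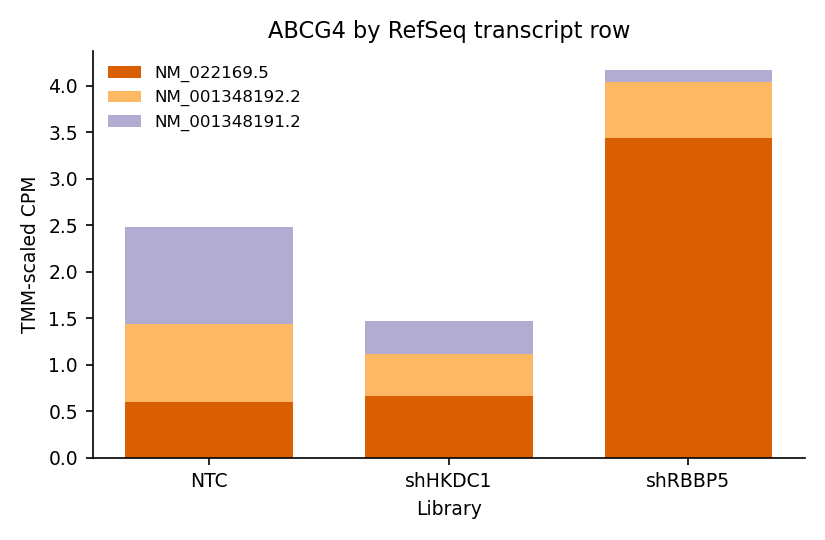
TMM-scaled CPM of ABCG4 (vertical axis) stacked by RefSeq transcript row in the NTC, shHKDC1 and shRBBP5 libraries, 1 library per bar. NM_022169.5 makes up 24.2% of the bar in NTC and 82.4% in shRBBP5, and NM_001348191.2 shrinks from 1.04 to 0.132 CPM.

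Between genes, levels can be compared only per transcript length, taken from the GENCODE 29 counterpart of the leading row or, for ABCG4, of the pair above (7309 bases for ABCA4, 6525 for ABCA5, 3852 for ABCG4). Per kilobase, NTC held 0.643 CPM of ABCG4 [0.530 to 0.779], 0.540 of ABCA5 [0.457 to 0.631] and 0.277 of ABCA4 [0.223 to 0.342]. The order was the same in the other libraries. In shHKDC1 the values per kilobase were 0.382 [0.270 to 0.524], 0.237 [0.170 to 0.323] and 0.0424 [0.0183 to 0.0835], and in shRBBP5 they were 1.08 [0.922 to 1.26], 0.396 [0.323 to 0.480] and 0.244 [0.190 to 0.307]. The intervals of ABCG4 and ABCA5 overlapped in NTC and in shHKDC1 but not in shRBBP5, and ABCA4 lay below both in all 3 libraries. Only some transcripts of ABCA4 had rows, so its value is a part set beside whole genes. The ABCG4 row NM_001348192.2 had no length of its own and was given that of the pair.

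The rest of the family was scarcely seen on rows of its own. Of 48 family genes listed, 20 had a row, and besides the 3 described here 12 were below a mean of 1 CPM and 5 had 0 units in every library. The other 28, among them ABCA1, ABCC2 and ABCG2, were not analysed here. Of the units on named rows of the family, the 3 genes held 87.4% in NTC, but 69.6% in shHKDC1 and 89.9% in shRBBP5. They are the family genes that passed the filter, ABCA4 through NTC and shRBBP5, so these shares partly follow from that choice. Among the 12, 6 did not exceed 3 fragments in any library and the highest mean was 0.308 CPM, that of ABCG1.

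ABCG1 and the others named next were chosen after their values were seen, and they fall below the filter. ABCG1, which exports sterol like ABCG4, stood at 0.280 CPM in NTC, with 0.513 in shHKDC1 and 0.132 in shRBBP5, the reverse of the ABCG4 order. Its ratio of shHKDC1 over shRBBP5 was 1.94 [0.43 to 3.85], against −1.50 for ABCG4, while its ratios over NTC were not called, at 0.87 [−0.37 to 2.14] in shHKDC1 and −1.07 [−2.99 to 0.48] in shRBBP5. ABCA13 stood at 0.108, 0.184 and 0.364 CPM in NTC, shHKDC1 and shRBBP5, and its ratio of shRBBP5 over NTC, 1.72 [0.19 to 3.53], was past the 2-fold rule. ABCB1, the multidrug exporter P-glycoprotein, stood at 0.126, 0.300 and 0.107 CPM in the same library order, and its ratio of shHKDC1 over NTC was 1.25 [−0.54 to 2.98]. ABCD2, a peroxisomal fatty acid transporter of which only some transcripts had rows, had 29 units in NTC, with 0 in shHKDC1 and 24 in shRBBP5, and a count of 0 in shHKDC1, taken to allow 3 fragments, allows up to 0.116 CPM. The ABCD2 levels in NTC and shRBBP5, 0.166 and 0.150 CPM, are little above that limit.

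ABCA5 lies at the end of a run of related genes, and its neighbours in RefSeq order are ABCA10, ABCA6, ABCA9 and ABCA8 on one side and the kinase gene MAP2K6 on the other. ABCA6, ABCA8 and ABCA9 had 0 units in all 3 libraries, which by the same limit of 3 fragments allows up to 0.0685 CPM in NTC, 0.0752 in shRBBP5 and 0.116 in shHKDC1. ABCA10 had 4 units, about 1 fragment, in shHKDC1 alone. Within this run ABCA5 therefore held nearly all units that were on named rows. MAP2K6, which activates p38 kinases, stood at 4.10 CPM in NTC, with 0.600 in shHKDC1 and 3.85 in shRBBP5.

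**Figure D4:**
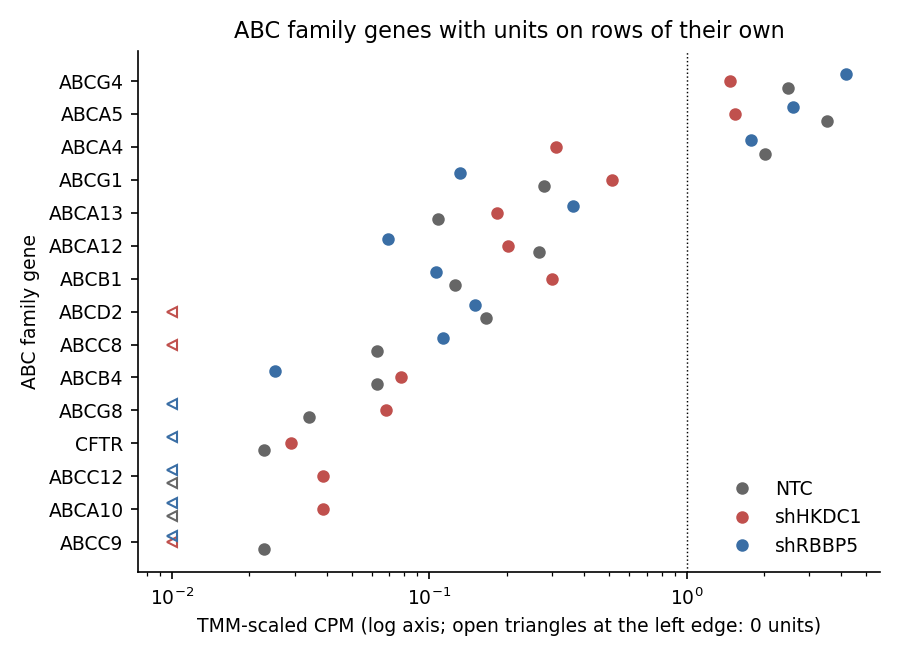
TMM-scaled CPM (horizontal log axis) of the 15 ABC family genes with units on rows of their own, 1 point per library. Open triangles at the left edge stand for 0 units and the dotted line for 1 CPM. ABCA4, ABCA5 and ABCG4 stand to the right of the 12 other genes, except that ABCA4 in shHKDC1 (0.310 CPM) lies left of ABCG1 in that library (0.513 CPM) and of ABCA13 in shRBBP5 (0.364 CPM).

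The genes most like each of the 3 were found by distance over the log2 ratios of both knockdowns against NTC, among 911 other measured protein-coding genes with every transcript on a row. Both ratios share the NTC library and rest on 3 libraries in all. Nearest to ABCA4 were CYP4F3, an enzyme that inactivates leukotriene B4 (distance 0.0645), MAP2K6 (0.115) and SEC31B, a coat protein of vesicles leaving the endoplasmic reticulum (0.175). Their ratios of shHKDC1 over NTC were −2.67, −2.76 and −2.57, and those of shRBBP5 over NTC were −0.12, −0.09 and −0.05. Nearest to ABCA5 were the zinc finger gene ZNF182 (0.0254), AASDH (0.0497) and STAU2, a double-stranded RNA binding protein (0.0518). The gene nearest to ABCG4, RIMKLA, which makes N-acetylaspartylglutamate, was farther off (0.144) than the nearest to either other gene, and was followed by the kinase gene PTK6 (0.173) and CCDC136 (0.189).

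Other genes of sterol and retinoid handling were sparse. Of 31 genes of sterol transport and its nuclear receptors, 9 had rows and 2 were measured, and of 24 sterol synthesis genes and 24 lysosome genes 0 had rows, so that the surroundings of ABCA5 and ABCG4 were not analysed here. The measured ones were VLDLR, a lipoprotein receptor, and MYLIP, the ubiquitin ligase that directs such receptors to degradation. VLDLR, with a ratio of 2.56 [2.28 to 2.85], and MYLIP, with 1.11 [0.61 to 1.62], were both called higher in shHKDC1 than in NTC, the opposite side from ABCA4 and ABCA5, where 8.17% of the measured genes were called higher. Of MYLIP, as of ABCA4, only some transcripts had rows. In shRBBP5 over NTC neither was called, VLDLR at −0.69 [−1.11 to −0.27] and MYLIP at 0.77 [0.29 to 1.25]. Sterol genes below the filter, named after their values were seen, lay on both sides. SOAT2 had 40, 0 and 65 units in NTC, shHKDC1 and shRBBP5, and GRAMD1B had 43, 123 and 48.

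Of 25 retinoid-handling genes, 12 had rows and 2 were measured. CYP26A1, which degrades retinoic acid, stood at 3.62 CPM in NTC, with 1.45 in shHKDC1 and 1.34 in shRBBP5. It was called lower in both knockdowns, at −1.31 [−1.85 to −0.78] and −1.44 [−1.93 to −0.99], where ABCA4 was called in shHKDC1 but not in shRBBP5. The retinoic acid binding protein CRABP2 was called in neither, at 0.65 [−0.14 to 1.38] and 0.63 [−0.06 to 1.31]. RDH12, a retinol dehydrogenase of photoreceptors that was below the filter and named after its values were seen, stood at 0.257, 0.155 and 1.18 CPM. STRA6, named in the same way and with only some transcripts on rows, stood at 0.0970, 0.455 and 0.282 CPM in that library order. Among photoreceptor markers, CRX and SAG had 0 units throughout, and RCVRN had 10, 0 and 7. For ABCG4, of 4 neuron markers 2 had rows, MAP2 at 1.20, 1.18 and 0.903 CPM and RBFOX3 at 0.240, 0.106 and 0.157. Only some transcripts of MAP2 had rows, and RBFOX3 was below the filter. Whether cells of these kinds had a part in the ABCA4 or ABCG4 levels was not tested.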

How the data were processed

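RNA sequencing of 3 PLC libraries was analysed. The deposited table held estimated counts (expected counts), before any scaling by depth or transcript length, with 1 column per library. HISAT2 2.2.1, StringTie 1.3.4, DESeq2 1.28.1 and hg19 appear, with no role attached, in the submitters' processing notes. The counting tool was not given in the sources used here. Columns headed shHD and shRB were matched to shHKDC1 and shRBBP5 by abbreviation.

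RefSeq rows (27403, of which 27357 were matched) were named from RefSeq GRCh38.p14 and summed per symbol. Sizes were scaled by TMM (edgeR 4.0.16, R 4.3.3) over all features, with factors of 1.083, 0.894 and 1.032. Log2 ratios used a pseudocount of 0.5 units. Intervals are exact 95% Clopper-Pearson (ratios, shares) or Poisson (levels) on fragments of 4 units, an assumption from a pile-up of low values at 4 (525 rows of NTC at 4 units, 332 at 3, 235 at 5). Intervals treat PCR copies as separate molecules. A floor of 3 fragments came to 0.0685, 0.116 and 0.0752 scaled CPM. No test was possible at 1 library per group. The rule was run on simulated counts over 13444 features, recovering 100% of planted 4-fold and 0% of 1.5-fold differences in each comparison. Those counts held counting noise alone, so the run checks the code and says nothing of variation between libraries. The 1.5-fold result follows from the 2-fold rule, and no difference between 1.5-fold and 4-fold was planted. Python 3.11.15, NumPy 2.4.6, SciPy 1.17.1, pandas 2.3.3 and matplotlib 3.10.9 were used.

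The named genes are the 3 members, ABC genes and list members at a mean CPM of at least 1, and the 3 nearest protein-coding genes to each member. Genes below that mean (ABCG1, ABCA13, ABCB1, ABCD2, RDH12, STRA6, SOAT2, GRAMD1B and the markers KRT7, COL3A1, DES, ACTA2, COL1A2, RBFOX3, RCVRN, CRX and SAG) were named after their values were seen. The ABCA genes beside ABCA5 were named by their position. Members and lists were chosen with earlier results of these data known.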

Additional observations from a re-analysis of the deposited data

How the results depend on the processing

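Scaling by total counts, DESeq2 size factors or upper quartiles, no filter, a pseudocount of 5 units, units taken as reads, and leaving out the 20 most abundant features or partly named genes gave 69 ratios of the 3 genes. In 68 of them direction and call were as reported, and the exception was ABCG4 in shHKDC1 over NTC with total counts (−1.03, called lower). With no filter, or without partly named genes, no ratio could change, since these settings only decide which genes are kept. Taking units as reads left every ratio as it was and only narrowed the intervals. No call could change there either, since each uncalled ratio was short of 2-fold. The matches of all these settings within the 68 were therefore fixed in advance. ABCA4 ranged from −2.97 to −2.52 in shHKDC1 over NTC, ABCA5 from −1.46 to −1.10, and ABCG4 in shHKDC1 over shRBBP5 from −1.71 to −1.39. Leaving out partly named genes, which removes ABCA4 and was added after the data were seen, left 1 called gene in shHKDC1 over NTC and 1 in shHKDC1 over shRBBP5.

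With RefSeq rows not summed, 2 rows were called in shRBBP5 over NTC instead of 0, both of ABCG4, and 3 in shHKDC1 over NTC instead of 2, the added one being NM_001348191.2 of ABCG4. NM_022169.5 stood at 2.51 there and at 0.16 in shHKDC1 over NTC. NM_001348191.2 stood at −2.95 in shRBBP5 over NTC, −1.52 in shHKDC1 over NTC and 1.43 in shHKDC1 over shRBBP5. NM_001348192.2 stood at −0.48 in shRBBP5 over NTC and −0.43 in shHKDC1 over shRBBP5. Adding the pair of rows with 1 GENCODE counterpart, chosen after the data were seen, gave 1.12 in shRBBP5 over NTC. The cause of these shifts was not tested.

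With no filter the median over all genes in shHKDC1 over shRBBP5 turned from −0.15 to 0.11. With no filter 493, 441 and 413 genes met the calls counted in shHKDC1 over NTC, shRBBP5 over NTC and shHKDC1 over shRBBP5, against 255, 117 and 197. A minimum mean of 5 CPM leaves none of the 3 genes, and 52, 10 and 34 genes called. Features called in shRBBP5 over NTC numbered 1134 with no filter and 280 at 5 CPM, against 594, and those called lower in shHKDC1 over shRBBP5 numbered 883 at 5 CPM, against 1367. Total counts moved the features called lower in shHKDC1 over NTC from 1624 to 2667. No paired analysis was possible because each group had 1 library. Among the 3 gene sums, the lowest depth was that of ABCA4 in shHKDC1, at 8 fragments, and the ABCG4 row NM_001348191.2 had 5 in shRBBP5.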
